A study of Homo sapiens with 4 samples.

Results

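The genes that bring iron into the cell, store it, export it, carry it into mitochondria and break down heme were examined in K562-U2AF1_S34F cells given the U2AF1 inhibitor SF1-8. The group holds 10 genes, chosen by symbol for their roles, out of 62778 named entries of the deposited table. They are TFRC, FTH1, FTL, SLC25A37, SLC40A1, SLC11A2, IREB2, ACO1, HMOX1 and HMOX2, and each was found in the table. Where several entries carried a symbol, the one with the highest mean count was used. K562 is an established human erythroleukemia line, and all cells here, controls included, overexpressed the S34F mutant of the splicing factor U2AF1. The promoter of the transgene and the number of clones are not given in the sources used here. The 4 RNA-seq libraries comprise 2 of DMSO-treated cells, the solvent control, and 2 of cells given SF1-8 at 30 μM, all after 48 h. SF1-8 is a small molecule found by fragment screening against the domain through which U2AF1 binds its partner U2AF2. Nothing in the labels says how the replicates were separated, so p-values measure only the spread between these libraries.

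Iron enters erythroid cells bound to transferrin, which the transferrin receptor carries into endosomes, and it is then pumped into the cytosol, used in mitochondria for heme and iron-sulfur clusters, or stored in ferritin. The balance is set after transcription by the iron regulatory proteins, encoded by ACO1 and IREB2. When iron is scarce, they bind a short hairpin, the iron-responsive element (IRE), in the mRNAs of these genes. A hairpin in the 5′ untranslated region (UTR) then holds back translation of the mRNA, as in ferritin, and hairpins in the 3′ UTR protect the mRNA from decay, as in TFRC. Heme oxygenases open the heme ring and set its iron free.

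The hairpins are shown because the regulatory proteins bind RNA of this form. Coding transcripts of GENCODE version 29 were searched on the mRNA strand for the loop CAGTGN, closed by 5 base pairs, with an unpaired C before the pairs on the 5′ side and at least 3 of 5 further pairs below it. G-T pairs were allowed, and 1 unpaired base was allowed on the 3′ side of the upper stem. Of the 10 genes, 6 held a match, while 1.48% of 19669 coding genes did, and several of the 10 are textbook carriers of an IRE, so the share among them is a description. In each line the unpaired C and the loop are in capitals, the sequence is written 5′ to 3′ as DNA, and positions are on GRCh38.
FTH1, 5′ UTR, chr11:61967575-61967601, minus strand: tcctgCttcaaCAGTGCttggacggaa
FTL, 5′ UTR, chr19:48965336-48965362, plus strand: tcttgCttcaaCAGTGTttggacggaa
SLC40A1, 5′ UTR, chr2:189580662-189580688, minus strand: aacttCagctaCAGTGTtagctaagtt
TFRC, 3′ UTR, chr3:196050980-196051006, minus strand: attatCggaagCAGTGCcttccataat
TFRC, 3′ UTR, chr3:196050576-196050602, minus strand: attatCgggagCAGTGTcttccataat
TFRC, 3′ UTR, chr3:196050511-196050537, minus strand: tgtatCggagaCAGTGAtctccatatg
TFRC, 3′ UTR, chr3:196050464-196050490, minus strand: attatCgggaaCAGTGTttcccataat
SLC11A2, 3′ UTR, chr12:50988269-50988296, minus strand: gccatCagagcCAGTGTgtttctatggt
IREB2, 3′ UTR, chr15:78500970-78500997, plus strand: atttgCtttcaCAGTGAtgagtgagagg

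The 2 ferritin hairpins share the same upper stem, and TFRC held 4 matches, a number no other member reached. The TFRC match that starts at 196050980 lies apart from those between 196050464 and 196050602. Hairpins that depart from the searched form would be missed, so these are numbers of matches. The SLC11A2 hairpin is in 5 of the gene's 18 annotated coding transcripts and that of SLC40A1 in 1 of 5, so gene totals may mix mRNAs with and without it. Which of these transcripts the cells made was not analysed. The IREB2 match lies past the 3′ end of the deposited entry, at 78498209, and in 1 of 4 coding transcripts. SLC25A37, ACO1, HMOX1 and HMOX2 held no match to these letters. A match is a description of sequence and does not show binding.

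Iron uptake, storage, export and heme breakdown genes kept levels with SF1-8 that the test did not separate from those with DMSO. The edgeR quasi-likelihood test, adjusted over all genes by the Benjamini-Hochberg method, called 0 of the 10 members at 0.05, where 0.0420% of the 26167 genes tested were called. Without adjustment 0 members passed 0.05 in either direction, where 4.33% of all genes did, 1.78% higher and 2.54% lower with SF1-8. DESeq2 and limma also gave 0 at the adjusted threshold. All 10 members passed the filter on low counts. The fitted log2 fold change was above 0 in 5 members and below 0 in 5, with a median of 0.0088 beside -0.011 over all genes tested. The 5 positive estimates, those of FTL, SLC40A1, IREB2, ACO1 and HMOX2, all turned negative when FPKM was rescaled to TPM (limma), which moved the median of all genes to -0.14. Leaving out HMOX1, which was barely detected, the other 9 members lay between -0.13 and 0.12 on the log2 scale. Their standard errors were 0.0798 to 0.172. For these 9 the 95% intervals ran at most from 0.675-fold to 1.32-fold, so in this fit a change of 1.5-fold in either direction lay outside each of them. The bound held for fewer members in other settings, from 4 of 9 after rescaling to TPM to 9 of 9 with DESeq2, and FTL passed it in each limma setting. In 7 of the 10 members the estimate was smaller than its standard error.

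**Figure D1:**
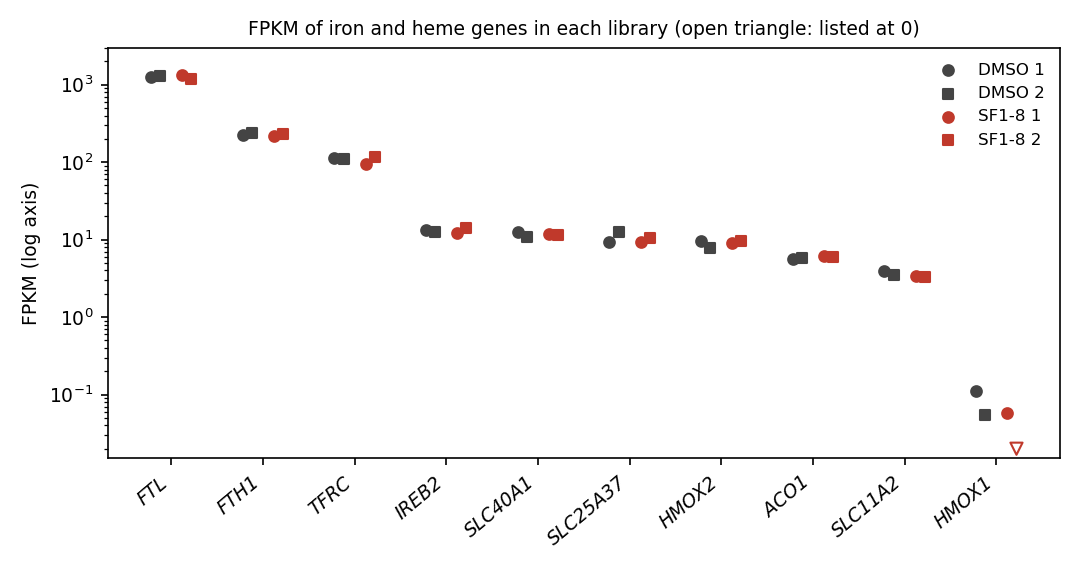
FPKM (fragments scaled for gene length and library depth, log axis) of the 10 genes in each of the 4 libraries, ordered by mean level. FTL, at 1197 to 1352, stands above FTH1 and TFRC, 6 genes lie between 3.25 and 14.1, and HMOX1 was at 0.112 or less with 1 SF1-8 library listed at 0.

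The libraries held between 45331271 and 67311734 counts on named entries, with DMSO 1 the smallest. The erythroid identity was checked on markers that fell on 13 entries, TFRC among them, all of which passed the filter. None had an unadjusted p under 0.05 by edgeR, 11 of the 13 estimates were below 0, where 13510 of the 26167 genes tested were. In 5 of the 13 (38.5%) the treated pair was below the control pair, against 20.0% of all genes, and in 0 it was above, against 14.2%. GATA1, the main erythroid transcription factor and one of those 5, was at 76 and 79.1 FPKM in the controls and 75.9 in both treated libraries. Its log2 fold change of -0.005 was the nearest to 0 of the 13, so it does not stand for the list. The 13 ran from -0.75 to 0.083, with a median of -0.064. The summed FPKM of the 13 entries was 399 to 406 with DMSO and 367 to 389 with SF1-8. TFRC, itself a member, gave 95.7 to 116 of it. HBG1, HBG2 and HBE1 share an entry with other genes, among them TRIM5, at 27.5 to 33.3 FPKM, so the sum says little about these globins. Macrophages recycle heme iron, and of 10 of their markers 6 were tested and 0 passed an unadjusted 0.05 by edgeR. CD163 and C1QA were at 0 in every library, and nearly all of the summed FPKM, 30.6 to 37.3 with DMSO and 35.9 to 42 with SF1-8, came from LYZ and an entry that CD68 shares with SENP3 and EIF4A1. Of 7 lymphoid markers 5 were tested and 0 passed, with a summed FPKM of 10.4 to 12.2 and of 10 to 10.2. Fibroblast markers lay mostly lower with SF1-8, though 0 passed after adjustment. Among 12 tested, 9 were lower in both SF1-8 libraries than in either control, and 5 passed an unadjusted 0.05 by edgeR, all of them lower, where 20.0% and 2.54% of all genes were lower in these ways. Of those 5, LUM, DCN and PDGFRB had few counts and passed the filter only through the DMSO libraries, so the filter fixed their direction. They are also among the 9. COL1A2 and COL3A1 remain, but the paper already lists both, and COL1A1, as down-regulated in this experiment. Their direction was thus known beforehand, and the shares of this list are a description. The summed FPKM of this list was 17.1 and 10.4 in the controls and 7.43 and 4.65 in the treated libraries, where an entry that PDGFRA shares with FIP1L1 gave 3.48 and 3.67. LUM was listed at 0 in both SF1-8 libraries. Whether the RNAs of other cell types had a part in the iron gene values was not tested. In bulk RNA, fewer cells of a type and less RNA per cell cannot be told apart.

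Iron uptake was examined first. TFRC encodes the transferrin receptor, the gate through which most iron reaches erythroid cells, and its entry on chromosome 3 spans 196027183 to 196082096 in GRCh38. Its FPKM values were 114 and 111 with DMSO and 95.7 and 116 with SF1-8. SF1-8 1 was the lowest library and SF1-8 2 the highest, so the groups overlapped. The DMSO mean was 113 ± 2.13 (SD, n = 2) and the SF1-8 mean 106 ± 14 (SD, n = 2). The log2 fold change was -0.064 (standard error 0.0977, 95% interval -0.31 to 0.18, edgeR adjusted p = 0.97), and without SF1-8 1 it was 0.064. A further entry named TFRC, 263 bases long inside the gene, held between 2 and 24 counts per library and was not used.

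SLC11A2 encodes DMT1, the transporter that moves ferrous iron from the endosome into the cytosol, and its entry spans 50979401 to 51028566 on chromosome 12. The FPKM was 3.88 and 3.48 with DMSO and 3.37 and 3.25 with SF1-8. Both SF1-8 libraries were below both DMSO libraries, and the nearest pair differed by little beside the gap between the DMSO libraries. Its log2 fold change was -0.12 (standard error 0.0912, interval -0.35 to 0.11, edgeR adjusted p = 0.97). It was the member with the smallest p. The FPKM of groups did not overlap for 2 of the 10 members, SLC11A2 and ACO1, against 34.2% of all genes tested. A group of 10 is too short to compare its share with that.

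SLC25A37, mitoferrin 1, brings iron into the mitochondria of erythroid cells for heme synthesis. Its entry, on chromosome 8 from 23528956 to 23572221, had an FPKM of 9.38 and 12.4 in DMSO against 9.19 and 10.4 in SF1-8. DMSO 2 stood above the other three. The DMSO mean was 10.9 ± 2.12 (SD, n = 2) and the SF1-8 mean 9.81 ± 0.884 (SD, n = 2). SLC25A37 had the widest interval of the well-expressed members, with a log2 fold change of -0.13 (standard error 0.172, interval -0.57 to 0.31, edgeR adjusted p = 0.97). Its direction rested on DMSO 2, since it was 0.14 without that library, and without DMSO 1 it was -0.35, below an unadjusted threshold of 0.05 but with an edgeR adjusted p of 0.955.

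Ferritin, the storage shell for iron, is built of a heavy chain, FTH1, that oxidizes iron, and a light chain, FTL, that helps to form the mineral core. FTL, on chromosome 19 from 48965309 to 48966879, was the most abundant member and ranked 13 among all named entries by mean FPKM. Its FPKM was 1270 and 1277 with DMSO and 1352 and 1197 with SF1-8. The SF1-8 libraries lay on either side of the DMSO pair. The log2 fold change from the counts was 0.029 (standard error 0.0828, interval -0.18 to 0.24, edgeR adjusted p = 0.986), but it was -0.14 after rescaling to TPM and -0.28 after quantile normalization, so its sign depends on the scaling.

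FTH1, on chromosome 11 from 61959718 to 61967634, ranked 67. Its FPKM was 223 and 236 with DMSO and 217 and 232 with SF1-8, so the groups interleaved. The log2 fold change was -0.0094 (standard error 0.0798, interval -0.21 to 0.19, edgeR adjusted p = 0.995), and it was 0.079 without DMSO 2. Ferritin genes have many processed pseudogenes, with which reads can be shared. The 24 rows named as FTH1 pseudogenes held 7.31% and 8.03% as many counts as FTH1 with DMSO, and 8.96% and 7.62% with SF1-8. The leading ones were FTH1P10, FTH1P7 and FTH1P8, each with 1.27% to 2.66% of the FTH1 count. For FTL the 16 pseudogene rows held 0.516% to 0.866%. The shares overlapped between the groups. How many reads were assigned wrongly between ferritin genes and these copies was not tested, so ferritin levels are uncertain. FTH1 also overlaps BEST1 on the other strand. Whether counting used strand is not given in the sources used here, so reads of such partners, among them an antisense gene at IREB2 and a pseudogene at TFRC, cannot be told apart from the members' own.

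SLC40A1 encodes ferroportin, the only known exporter of iron from human cells. Its entry, on chromosome 2 from 189560590 to 189583402, had an FPKM of 12.4 and 10.8 in DMSO against 11.7 and 11.5 in SF1-8. Both treated libraries fell between the DMSO values. Its log2 fold change was 0.027 (standard error 0.0876, interval -0.20 to 0.25, edgeR adjusted p = 0.987).

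**Figure D2:**
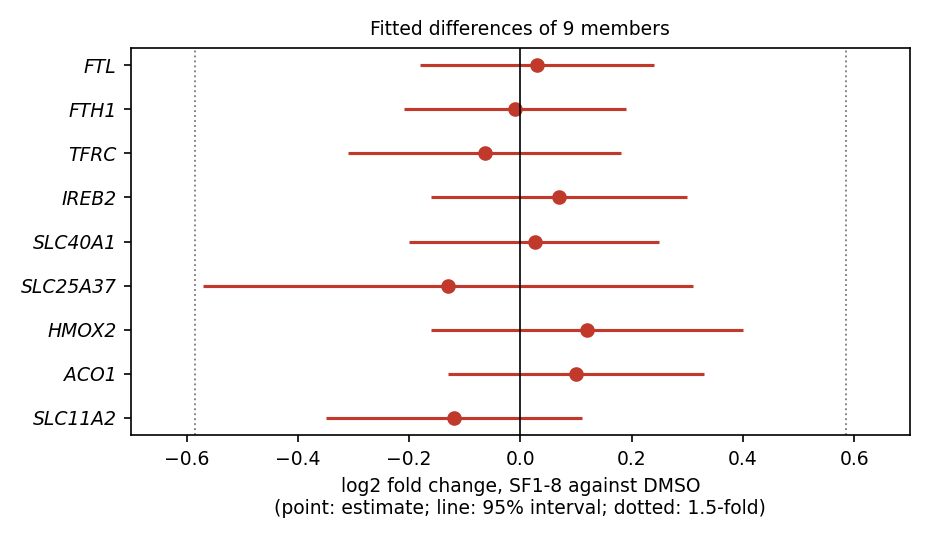
Fitted log2 fold change (point) with its 95% interval (line) for 9 members, HMOX1 left out, with dotted lines at 1.5-fold. In this edgeR fit every interval crosses 0 and lies inside the dotted lines, that of SLC25A37 being the widest, from -0.57 to 0.31.

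The sensors of iron were next compared. IREB2 encodes iron regulatory protein 2, which is controlled mainly through its degradation, and ACO1 encodes iron regulatory protein 1, which turns into a cytosolic aconitase when it holds an iron-sulfur cluster. IREB2, on chromosome 15 from 78437431 to 78498209, had an FPKM of 13.2 and 12.4 in DMSO against 12.2 and 14.1 in SF1-8, and the treated libraries were the lowest and the highest. Its log2 fold change was 0.069 (standard error 0.0895, interval -0.16 to 0.30, edgeR adjusted p = 0.97). ACO1, on chromosome 9 from 32384603 to 32450836, had an FPKM of 5.65 and 5.82 in DMSO against 6.15 and 5.94 in SF1-8. Here the treated pair lay above the control pair, by a small margin. The log2 fold change of ACO1 was 0.10 (standard error 0.0914, interval -0.13 to 0.33, edgeR adjusted p = 0.97). Both proteins are regulated after translation, and protein was not analysed here.

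The 2 heme oxygenases differed widely in level. HMOX2, the constitutive enzyme, lies on chromosome 16 from 4474690 to 4510346 and had an FPKM of 9.58 and 7.91 in DMSO against 9.08 and 9.53 in SF1-8. DMSO 2 was the lowest and DMSO 1 the highest. Its log2 fold change was 0.12 (standard error 0.11, interval -0.16 to 0.40, edgeR adjusted p = 0.97). HMOX2 overlaps NMRAL1 on the other strand. HMOX1, the enzyme that heme and oxidative stress induce, lies on chromosome 22 from 35380361 to 35390293. It held 16 and 11 counts with DMSO, 12 in SF1-8 1 and 0 in SF1-8 2, at an FPKM of 0.112, 0.054, 0.0582 and a listed 0. No SF1-8 library stood above both controls. A change within the interval of the log2 fold change, which ran from -5.60 to 2.70, was not detectable at this depth (edgeR adjusted p = 0.97).

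FPKM is scaled by length, but the entries held unlike numbers of transcripts, 1 for FTL, 12 for FTH1, 15 for TFRC and 32 for SLC11A2. How length was set for such entries is not given in the sources used here. The order and multiples of different genes are thus of FPKM as deposited, and part of them may come from the length used. From the highest, the order was FTL, FTH1, TFRC, IREB2, SLC40A1, SLC25A37, HMOX2, ACO1, SLC11A2 and HMOX1. The mean FPKM of FTL was 5.61 times that of FTH1, FTH1 was 2.08 times TFRC, and TFRC was 8.39 times IREB2. Over the 4 libraries the ranges of IREB2 and SLC40A1, of SLC40A1 and SLC25A37, and of SLC25A37 and HMOX2 overlapped, so those neighbours were not separated beyond their spread. The other neighbours did not overlap.

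Ratios taken within a library do not depend on how libraries were scaled, and 6 were compared by a two-sided exact permutation test, which cannot give a p below 0.333 with 2 libraries against 2. The FPKM ratio of FTL to FTH1 was 5.68 and 5.4 with DMSO and 6.23 and 5.17 with SF1-8 (exact p = 1). Uptake against storage, as TFRC to FTH1, was 0.511 and 0.47 with DMSO and 0.441 and 0.499 with SF1-8 (exact p = 0.667). Uptake against export, as TFRC to SLC40A1, was 9.2 and 10.3 with DMSO and 8.22 and 10.1 with SF1-8 (exact p = 0.667). The ratio of the sensors, IREB2 to ACO1, was 2.34 and 2.14 against 1.99 and 2.38 (exact p = 1), and TFRC to FTL also overlapped between the groups. Only SLC40A1 to SLC11A2 did not overlap among the 6, at 3.2 and 3.1 with DMSO and 3.45 and 3.53 with SF1-8, the smallest p such a test allows (exact p = 0.333, Benjamini-Hochberg adjusted p = 1).

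**Figure D3:**
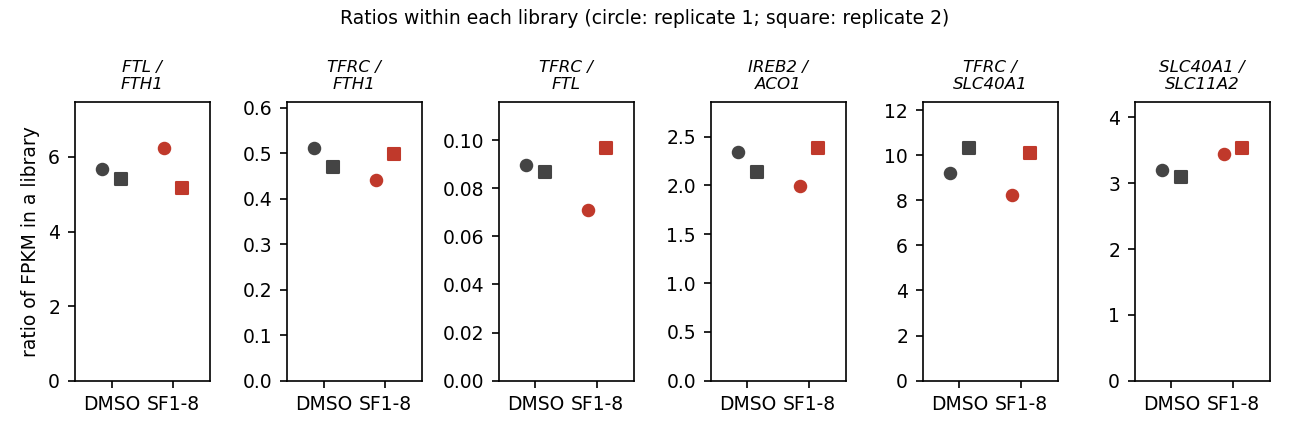
Ratio of FPKM between 2 members within each library, with DMSO in grey and SF1-8 in red, circles for replicate 1 and squares for replicate 2, and axes from 0. The groups overlap in 5 of the 6 ratios, and in SLC40A1 to SLC11A2 they lie at 3.1 to 3.2 and 3.45 to 3.53.

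In the deposited annotation, the members share pathway terms. As they were chosen for their roles with iron and heme, such sharing follows from the choice and is a description. Ferroptosis, a form of iron-dependent cell death, is assigned by KEGG to 6 of the 10 (TFRC, FTH1, FTL, SLC40A1, SLC11A2 and HMOX1), and mineral absorption also to 6. Cellular iron ion homeostasis is the Gene Ontology term of 9 of them, all but SLC25A37.

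The wider iron network was listed by role, and its 118 symbols fell on 117 entries, of which 108 were tested. After adjustment 0 of them passed 0.05 in edgeR and in each limma setting, and 2 passed in DESeq2. Without adjustment, edgeR gave 6 (5.56%), 2 higher and 4 lower with SF1-8, close to the 4.33% of all genes. The median log2 fold change was 0.033. In 24.1% of these genes the FPKM of the treated pair was above that of the control pair and in 13.9% below, where all genes gave 14.2% and 20.0%. The difference in these shares was not tested.

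The 4 lower genes were HFE, LRP1, ISCA2 and HSF1. HFE, which binds the transferrin receptor and is mutated in hereditary hemochromatosis, had an FPKM of 0.767 and 0.671 in DMSO against 0.332 and 0.294 in SF1-8. The treated libraries were lower by more than the spread within either pair. The log2 fold change of HFE was -1.16 (standard error 0.21, interval -1.70 to -0.63, edgeR adjusted p = 0.637). With DESeq2 its adjusted p was 0.0184, within a range of 0.0184 to 1 over the alternatives. ISCA2, a mitochondrial factor for late steps of iron-sulfur cluster assembly, had an FPKM of 2.2 and 2.46 in DMSO against 1.08 and 1 in SF1-8, again with no overlap. Its log2 fold change was -1.13 (standard error 0.184, interval -1.60 to -0.66, edgeR adjusted p = 0.53), and its adjusted p over the alternatives ranged from 0.00165 with DESeq2 to 0.911. HSF1, the master regulator of the heat shock response and one of the factors acting on HMOX1, was at 11.3 and 10.6 FPKM with DMSO and 8.22 and 7.98 with SF1-8 (log2 fold change -0.41, edgeR adjusted p = 0.74). LRP1, a receptor for heme bound to hemopexin, was low, at 0.258 and 0.182 FPKM with DMSO and 0.139 and 0.111 with SF1-8, with a log2 fold change of -0.77 (edgeR adjusted p = 0.97).

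The 2 higher genes were MAFK and CIAO2A. MAFK, a small MAF protein that pairs with NRF2 and with the HMOX1 repressor BACH1, had an FPKM of 4.03 and 2.46 in DMSO against 5.7 and 5.73 in SF1-8. The fitted log2 fold change was 0.85 (standard error 0.221, interval 0.29 to 1.42, edgeR adjusted p = 0.97), and at least 0.58 when any 1 library was left out. CIAO2A, which takes part in loading the cluster of iron regulatory protein 1, had 19.8 and 17.5 with DMSO and 31.4 and 22.6 FPKM with SF1-8. The difference in CIAO2A was uneven between the treated libraries, and its log2 fold change of 0.57 (edgeR adjusted p = 0.97) ran from 0.31 to 0.79 without 1 library.

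The lists were also described by role, with the most abundant genes of each. Over all genes tested, 4.33% had an unadjusted p under 0.05 by edgeR. Each list is too short to compare its share with that. Of 14 uptake genes tested, HFE and LRP1 alone had an unadjusted p under 0.05 by edgeR, and the list's median log2 fold change was 0.019. SNX3, which recycles the transferrin receptor, stood at -0.12 and SLC39A14, an importer of zinc and iron, at 0.12. Of 5 genes of ferritin loading and turnover 0 passed. PCBP1, the chaperone that brings iron to ferritin, was at 147 and 147 FPKM with DMSO and 149 and 150 with SF1-8. NCOA4, which sends ferritin to the lysosome, was at 52.5 and 51.5 with DMSO and 52.7 and 61.4 FPKM with SF1-8, so that only 1 treated library stood out. Of 6 genes of export and of the hepcidin axis 0 passed, and their median was -0.19. HEPH, an oxidase that works with ferroportin, had a log2 fold change of -0.18, and HJV, a co-receptor in hepcidin control, 0.46 with a standard error of 0.633.

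In mitochondria, 1 of 21 genes of iron and cluster assembly passed an unadjusted 0.05 by edgeR, which was ISCA2. HSPA9, the chaperone of that pathway, whose entry also holds snoRNAs, and GLRX5, which passes clusters on, had log2 fold changes of -0.022 and 0.17. In the cytosol 1 of 12 passed, which was CIAO2A, and CIAO2B stood at 0.032. Of 10 genes that regulate the iron sensors or respond with them 0 passed, with CUL1, the scaffold of the ligase that degrades iron regulatory protein 2, at 0.20 and VHL at 0.42. The 6 other mRNAs known for an IRE also gave 0, with SDHB, a subunit of succinate dehydrogenase, at 0.056. Of 14 genes of heme breakdown and transport 0 passed, and PGRMC1, which binds heme, and BLVRB, a biliverdin reductase, stood at 0.13 and -0.0027.

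Of 9 regulators of HMOX1, MAFK and HSF1 passed an unadjusted 0.05 by edgeR, 1 in each direction, where 4.33% of all genes passed. A list of 9 is too short to compare such shares. NFE2L1 and KEAP1, the factor that holds NRF2 in check, had log2 fold changes of 0.13 and -0.25, and neither passed. Of the NRF2 target genes, 12 were tested, 0 passed, and 10 of the 12 estimates were above 0, with a median of 0.10. Over all genes tested, 12657 of 26167 estimates were above 0, with a median of -0.011. Rescaling to TPM (limma) moved the median of all genes to -0.14, and the values of this list in that setting are not given here. Whether these genes moved together was not tested. PRDX1 and TXN, which remove peroxides and reduce disulfides, were the most abundant NRF2 targets, at 323 to 366 and 139 to 167 FPKM, with groups that overlapped.

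**Figure D4:**
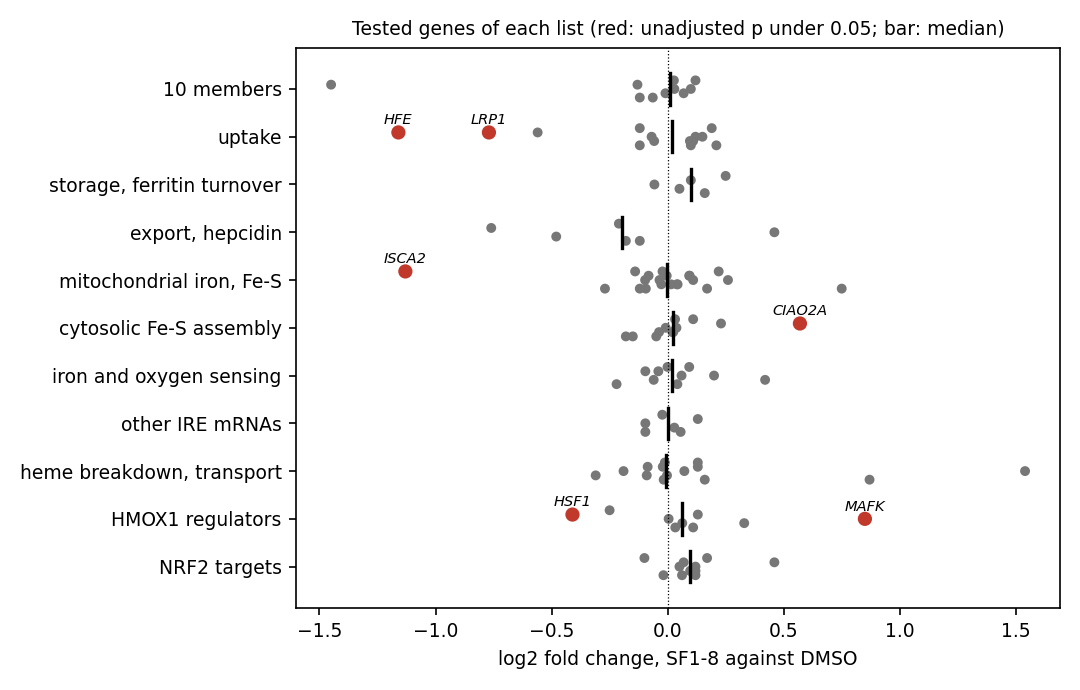
Log2 fold change with SF1-8 of each tested gene in the 10 members and in the lists of related genes, with black bars for medians and red points for an unadjusted p under 0.05. The 6 named points are HFE, LRP1, ISCA2, CIAO2A, HSF1 and MAFK, the median of the members is at 0.0088, and HMOX1 is the isolated member at -1.45.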

How the data were processed

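RNA depleted of ribosomal RNA was sequenced in 4 libraries. Per the labels, the authors' processing used cutadapt, FastQC, Bowtie2, HISAT2 and StringTie with hg38, with roles and versions not given in the sources used here. The deposited table holds FPKM, scaled by the authors for length and depth, and a count for each entry and library. As 4 was the commonest of the deposited counts above 0, they were taken as estimated counts of unknown counting error. Entries without a gene name (2095 of 64873, 0.372% of counts) were left out. Levels are FPKM as deposited, and entries with a count of 0 were read as 0. Differences were tested by edgeR 4.0.16 (TMM, filterByExpr, quasi-likelihood test, Benjamini-Hochberg) without a block, with limma 3.58.1 and DESeq2 1.42.0 as alternatives, in R 4.3.3. Standard errors are the log2 fold change over the root of the F statistic, and 95% intervals use the test's degrees of freedom. The steps were tested on simulated data with changes larger than 1.5-fold, so that test says nothing about smaller ones. Transcript values and proteins were not analysed here. The members and lists were chosen with earlier results of these data known. Named were all members and, from the lists, the 2 genes with the highest FPKM in each and those with an unadjusted p under 0.05. Some cell type markers outside this rule were named too, GATA1 among them. The values of 1 gene that the list counts include are not reported here. Hairpins come from GENCODE version 29, whose positions are on GRCh38.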

Additional observations from a re-analysis of the deposited data

How the results depend on the processing

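The alternatives changed the tool, the filter, the scaling and the libraries, and in each of them 0 of the 10 members passed an adjusted p of 0.05. With all libraries kept, 75 of 85 estimates had the direction of the main test. The median over all genes was itself -0.14 when FPKM was rescaled to TPM (limma), where FTL was -0.14, SLC40A1 -0.13, IREB2 -0.095, ACO1 -0.057 and HMOX2 -0.038. With quantile normalization (limma) FTL was -0.28 and SLC40A1 -0.011, and with log2(FPKM + 1), with or without the filter, and log2(FPKM + 0.1) FTL was -0.0014. The cause was not tested. Leaving out each library gave -0.19 to 0.064 for TFRC, -0.088 to 0.079 for FTH1, -0.065 to 0.12 for FTL, -0.35 to 0.14 for SLC25A37, -0.026 to 0.087 for SLC40A1 and -0.028 to 0.17 for IREB2, while SLC11A2 (-0.15 to -0.084), ACO1 (0.041 to 0.17), HMOX1 (-6.90 to -0.46) and HMOX2 (0.029 to 0.22) kept their sign. HMOX1 gave no value where it failed the filter, with counts divided by 4 and in the filtered limma settings. The 95% intervals of the 9 other members lay within 1.5-fold for 9 with DESeq2, with no filter on low counts and with the replicate block, for 8 with counts divided by 4, log2(FPKM + 1) or quantile normalization, for 7 with log2(FPKM + 0.1) or no filter in limma, for 4 with TPM, and for 8 to 9 without 1 library, SLC25A37 passing the bound without DMSO 1 or SF1-8 2. Members with an unadjusted p under 0.05 then numbered 0 to 1.

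Over all genes, 11 passed an adjusted p of 0.05 in edgeR, against 164 with DESeq2, 31 with no filter on low counts, and in limma 0 with log2(FPKM + 1), log2(FPKM + 0.1) or quantile normalization, 1 with TPM and 39 with no filter. Without 1 library the count was 0 (DMSO 1), 21 (DMSO 2), 30 (SF1-8 1) or 28 (SF1-8 2), the lone library of a group being assumed to vary like the others. In the wider lists 2 genes, HFE and ISCA2, passed with DESeq2, 3 had an unadjusted p under 0.05 with TPM against 6 in the main test, and 6 to 13 without 1 library, the highest being without DMSO 2.

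With the replicate number as a block, 0 genes passed an adjusted p of 0.05 and 971 an unadjusted one, and no call on a member changed. No source used here says that same-numbered libraries share a day or batch. The difference between replicates 1 and 2 correlated at 0.0165 between the groups across 26167 genes, which does not exclude that single genes vary with the number. With 2 libraries a group, changes within the intervals given could not be seen. For HMOX1, at few counts, that interval was wide, from 0.0206-fold to 6.51-fold in the main test.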
